A study of Homo sapiens with 6 samples.

Results

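Cullin RING ligase genes were followed in SW480 cells in which gankyrin had been depleted. The set comprised the genes with symbols beginning FBXO, FBXL or FBXW, antisense and divergent transcripts left out, together with 8 cullin genes, SKP1, SKP2 and RBX1. Of 71 such genes with a probe set assigned to a single gene, 61 had a mean log2 signal above 3.6 over the 6 arrays on their brightest probe set, among 14199 genes in all that met this limit. Each gene was read from that probe set. The 61 genes were 8 cullins, SKP1 and RBX1 (the SCF core), 10 FBXW genes, 14 FBXL genes counting SKP2, and 27 FBXO genes. FBXL9P and FBXW4P1, whose symbols end as those of pseudogenes do, were kept because the symbol alone chose the members.

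SW480 is an established human colon carcinoma line. Its cells carried an shRNA against gankyrin (3 arrays) or a non-targeting control shRNA (3 arrays), both for 4 days, in serum-containing medium and with no further treatment. The number of hairpins is not stated, and one sentence of the submitters' design text names NFIL3 in place of gankyrin, while the labels of the 3 knockdown samples name gankyrin. Labelled cRNA was read on 1-colour Affymetrix arrays. Nothing says that replicates were separate cultures, so p-values cover the variation among 3 arrays a group and perhaps no more than technical variation. In such bulk RNA, fewer cells of a type and less RNA per cell cannot be told apart.

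In an SCF ligase the cullin CUL1 forms a scaffold that holds the RING protein RBX1, which recruits the ubiquitin-loaded E2 enzyme, at one end and the adaptor SKP1 at the other. SKP1 in turn holds an interchangeable F-box protein, which binds the substrate. F-box proteins are named by their substrate-binding part: WD40 repeats in FBXW, leucine-rich repeats in FBXL and other folds in FBXO. The other cullins use other adaptors and receptors. Many substrates of these ligases go to the 26S proteasome, whose regulatory particle is assembled with the help of gankyrin, the product of PSMD10. The arrays measure transcripts, and ligase activity and protein levels were not analysed here.

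PSMD10 bore out the labels on every array. Its log2 signal was 6.58, 6.47 and 6.30 in gankyrin shRNA cells, against 10.19, 10.23 and 10.15 in control shRNA cells. All 10 colon epithelial markers examined met the signal limit, with EPCAM at 12.20 ± 0.08 in gankyrin shRNA cells and 12.20 ± 0.03 in control cells (log2 signal, SD, n = 3 each), while the intestinal markers CDX2, GPA33 and CDH17 had group means of at most 4.19. Of these 10 VIL1 rose by 0.82 ± 0.09, and KRT19 and CDH1 fell by 0.46 ± 0.07 and 0.64 ± 0.09 (log2 ± SE, limma). CDH17 met the limit by its mean in gankyrin shRNA cells, 3.84, while its mean in control cells, 3.57, lay below 3.6. Of the markers of fibroblasts, leukocytes and endothelium 2 of 5, 2 of 5 and 1 of 4 met the limit, and 0 of these passed in limma, also at an unadjusted p under 0.05. Their group means in gankyrin shRNA and control cells were 7.22 and 7.01 for COL1A1 and 4.75 and 4.57 for DCN. CD3E was at 5.03 and 4.9, CD14 at 4.48 and 4.37 and PECAM1 at 5.05 and 5.11. Control replicate 3 stood apart on the probe sets that gauge RNA integrity. The log2 gap between 3′ and 5′ probe sets of ACTB was 0.43, 0.50 and 0.53 in gankyrin shRNA cells, against 0.51, 0.52 and 1.82 in control cells. That of GAPDH was -0.10, -0.11 and -0.07 in gankyrin shRNA cells, against -0.02, 0.00 and 0.56 in control cells. Probe sets for 18S rRNA read 0.79 to 1.29 more in the knockdown group. The part of these measures in the results was not tested, and values without control replicate 3 are given where they matter.

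At an adjusted p under 0.05 (limma, Benjamini-Hochberg, 14199 genes), 2 of the 61 members rose and 8 fell after gankyrin shRNA. That is 16.4% of the members, against 22.5% of all genes tested. Rises made up 3.28% of the members and 8.13% of all genes, and falls 13.1% of the members and 14.3% of all genes. The share called thus lay near or below that of the array as a whole. The median log2 fold change was -0.08 for the members and -0.02 for all genes, and the median size of change 0.13 and 0.14. Members ran from -0.54 to 0.32, and 0 of them reached a 2-fold change, which 122 of all genes did.

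The arrays of the knockdown and control cells were fully separated for 26 members, 5 higher and 21 lower, where 40.3% of all genes were separated, 15.7% higher and 24.6% lower. With 3 arrays a side an exact permutation test (two-sided) then gives p = 0.1, its smallest possible value. The 21 lower include FBXL8, at 3.39, 3.58 and 3.49 in gankyrin shRNA cells and 3.88, 3.59 and 3.77 in control cells. All 3 of its knockdown values lie below the signal limit of 3.6, which FBXL8 met only through the control cells. Without control replicate 3 there were 4 rises and 10 falls among the members, beside 12.7% and 16.6% of all genes, and all 10 calls made on 6 arrays were made again. The 4 further genes, named after their values were seen, were CUL4B and FBXO4 upward, at 0.16 ± 0.05 and 0.34 ± 0.08 (log2 fold change ± SE), and FBXO11 and FBXO46 downward, at -0.16 ± 0.06 and -0.19 ± 0.07. Their limma adjusted p-values were 0.0284, 0.00427, 0.0490 and 0.0474 without that array, against 0.150, 0.0630, 0.152 and 0.0516 with it. Leaving out gankyrin shRNA replicate 1, 2 or 3 left 0 rises each time and 3, 5 and 3 falls in limma. Leaving out control replicate 1 or 2 left 0 and 1 rises and 8 and 5 falls.

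**Figure D1:**
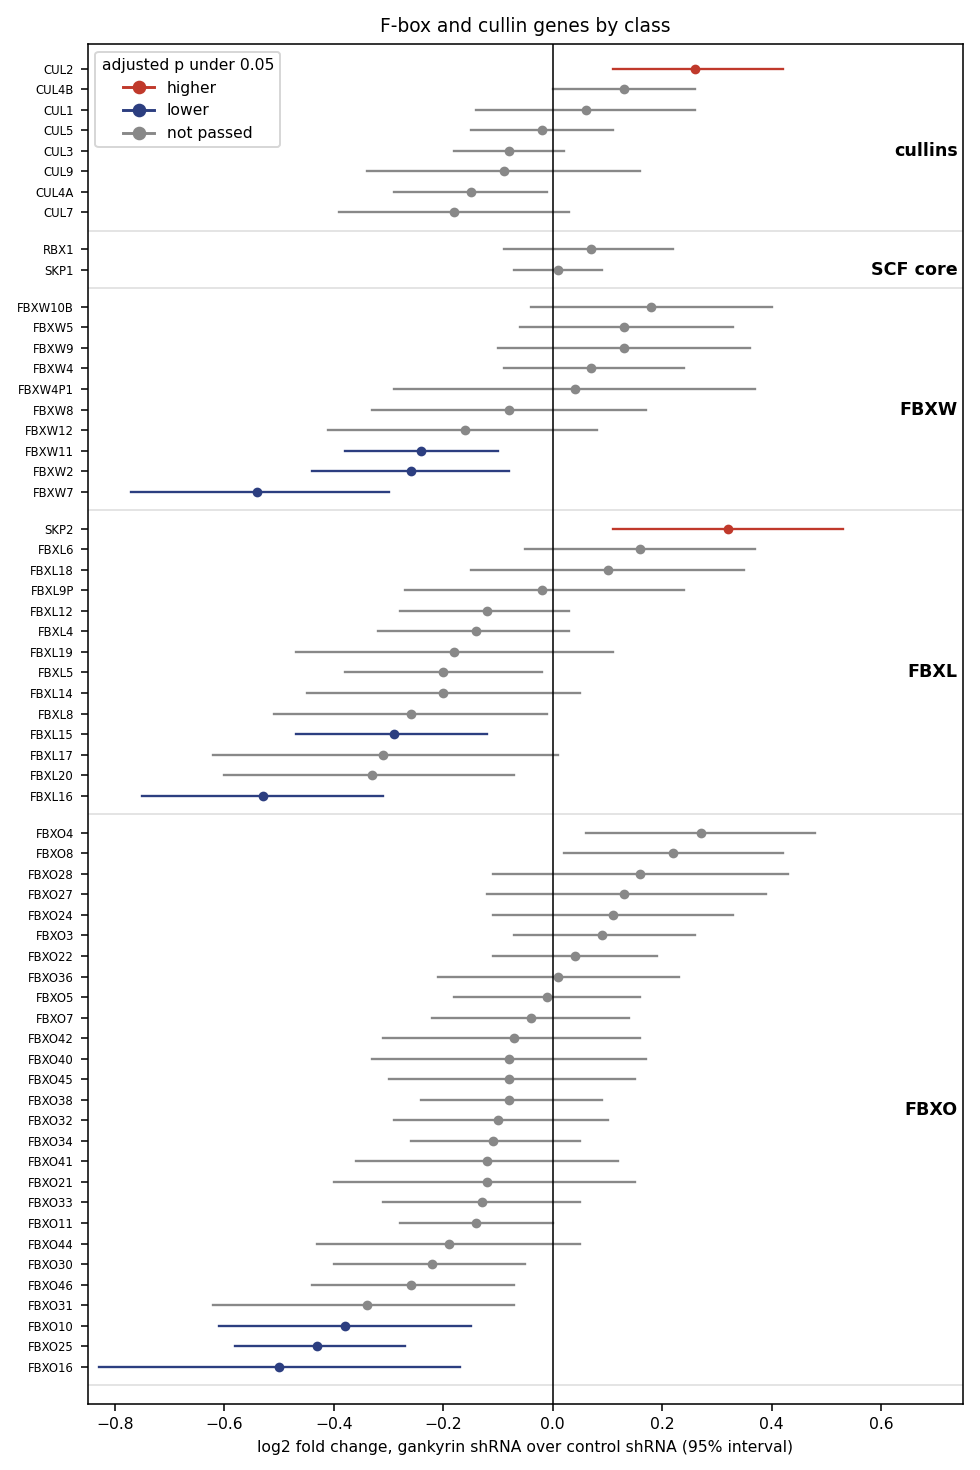
Log2 fold change (gankyrin shRNA over control shRNA, x axis) of each of the 61 members with its 95% interval from limma, arranged by class. CUL2 and SKP2 are the members that rose, the 8 that fell are all F-box genes, and SKP1, CUL5 and FBXO5 lie close to 0.

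No difference in the SCF core passed the test, and neither SKP1 nor RBX1 had an unadjusted p under 0.05. SKP1, the adaptor that carries the F-box proteins, had log2 signals of 12, 12.09 and 12.02 in gankyrin shRNA cells, against 12.02, 12.01 and 12.05 in control cells. The ranges overlap, and the log2 fold change was 0.01 with a 95% interval of -0.07 to 0.09 (limma adjusted p = 0.882). RBX1, the RING subunit, measured 9.91, 9.99 and 9.85 in gankyrin shRNA cells and 9.71, 9.89 and 9.95 in control cells. These also overlap, with a log2 fold change of 0.07 and an interval of -0.09 to 0.22 (limma adjusted p = 0.545). CUL1, the SCF scaffold, was at 9.15, 9.14 and 9.13 in knockdown cells and at 9.13, 9.24 and 8.87 in control cells. Control replicate 3 was the low value there, and the CUL1 log2 fold change of 0.06 (interval -0.14 to 0.26, limma adjusted p = 0.675) was -0.05 ± 0.05 without it.

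Of the 8 cullins 1 rose and 0 fell in limma, with 1 fall at an unadjusted p under 0.05 (12.5% and 0%, against 8.13% and 14.3% of all genes). CUL2, the scaffold that carries elongins and the VHL receptor, had log2 signals of 7.95, 7.96 and 7.91 in gankyrin shRNA cells, against 7.63, 7.73 and 7.67 in control cells. All knockdown values lay above all control values, and CUL2 rose by 0.26 ± 0.07 (log2 ± SE, limma adjusted p = 0.0214). Its other probe set, 203078_at, was at -0.04 ± 0.10 and did not pass. Calls were repeated under 15 alternative settings, and throughout the adjusted p of each setting that ended a call stands in parentheses. The CUL2 call was lost without gankyrin shRNA replicate 1, 2 or 3 (0.0863, 0.0904 and 0.0672), without control shRNA replicate 1 (0.0527), with averaged probe sets (0.297), with _x_at and _s_at probe sets avoided (0.838) and with arrays centred on their medians (0.0555).

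CUL4A and CUL4B, paralogous scaffolds that carry DDB1, had log2 fold changes of -0.15 ± 0.06 and 0.13 ± 0.06, and neither passed (limma adjusted p = 0.115 and 0.150). CUL4B was at 9.22, 9.29 and 9.28 in gankyrin shRNA cells and at 9.11, 9.10 and 9.20 in control cells, so a small step separated the groups. Its 3 other probe sets read low in control replicate 3. On 215997_s_at the log2 signal was 7.02, 7.17 and 6.96 in gankyrin shRNA cells, against 6.75, 6.76 and 5.96 in control cells. In a limma fit of every named probe set, 0 of the 4 CUL4B probe sets passed on 6 arrays (adjusted p 0.132 to 0.219). Without control replicate 3, 3 of the 4 passed as higher, at 0.16 ± 0.05, 0.21 ± 0.07 and 0.30 ± 0.08, and the fourth was at 0.15 ± 0.06 (limma adjusted p = 0.115). The CUL4A probe sets 201423_s_at, 227757_at and 232466_at were at -0.11 ± 0.07, 0.21 ± 0.12 and -0.36 ± 0.13 on 6 arrays and did not pass. Of the CUL4A probe sets only 227757_at passed without control replicate 3, as higher, at 0.31 ± 0.10 (limma adjusted p = 0.0432). The others were negative there.

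The other scaffolds did not pass. CUL3, which carries BTB-domain receptors, had a log2 fold change of -0.08 (95% interval -0.18 to 0.02), and CUL5, which carries SOCS-box receptors, one of -0.02 (-0.15 to 0.11). CUL5 read 8.59, 8.58 and 8.59 in gankyrin shRNA cells, against 8.61, 8.60 and 8.60 in control cells, a full separation over a very small distance. CUL7, the partner of FBXW8, was at -0.18 (-0.39 to 0.03), and CUL9, a p53-binding relative of CUL7, at -0.09 (-0.34 to 0.16). Their limma adjusted p-values ran from 0.216 for CUL7 to 0.874 for CUL5.

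Among the substrate receptors SKP2 rose while FBXW7, FBXW11 and FBXW2 fell. SKP2 directs the CDK inhibitor p27 to ubiquitination, FBXW7 acts on cyclin E, MYC, JUN and NOTCH, and FBXW11 (beta-TrCP2) acts on phosphorylated beta-catenin and IkB. The promoter windows of SKP2 and FBXW11 are shown because the transcripts of these receptors of the same scaffold moved in opposite directions and each has 1 annotated window. They run from 250 bases before to 50 after the start, in RefSeq on GRCh38.p14, at chr5:36151861-36152160 on the plus strand for SKP2 and at chr5:172006589-172006888 on the minus strand for FBXW11. Capitals mark the GC box GGGCGG on either strand.
SKP2: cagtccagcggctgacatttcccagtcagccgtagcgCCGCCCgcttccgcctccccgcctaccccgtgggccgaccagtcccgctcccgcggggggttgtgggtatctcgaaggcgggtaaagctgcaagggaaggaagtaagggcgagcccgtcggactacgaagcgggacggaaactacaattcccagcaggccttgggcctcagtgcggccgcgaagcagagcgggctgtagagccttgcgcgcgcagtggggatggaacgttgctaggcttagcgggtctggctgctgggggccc
FBXW11: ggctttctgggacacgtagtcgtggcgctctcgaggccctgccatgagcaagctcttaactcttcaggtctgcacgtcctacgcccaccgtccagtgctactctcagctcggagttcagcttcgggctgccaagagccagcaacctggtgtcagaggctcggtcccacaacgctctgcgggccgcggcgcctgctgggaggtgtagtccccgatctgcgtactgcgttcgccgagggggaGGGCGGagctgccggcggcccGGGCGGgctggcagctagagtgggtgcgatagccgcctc

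Of the 61 members 46 had such a window, 75 windows in all, since a gene can have several starts. The GC box lay in 68% of the members' windows and in 45% of all 35116 windows. All windows were taken without the signal limit that the members had to meet, so these shares do not compare like genes. The words CCAAT, TGACGTCA and CACGTG lay in 25.3%, 4% and 10.7% of the members' windows, against 34.6%, 1.85% and 7.26% of all windows. The E2F words TTTCCCGC, TTTGGCGC, TTTCGCGC and TTTGCCGC, searched on both strands, lay in 2 of the 75 windows (2.67%) and in 3.31% of all windows, and in neither window printed above. These matches describe letters only.

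SKP2 had log2 signals of 8.65, 8.61 and 8.81 in gankyrin shRNA cells, against 8.27, 8.28 and 8.56 in control cells. The highest control, replicate 3, lay just under the lowest knockdown array. SKP2 rose by 0.32 ± 0.09 (limma adjusted p = 0.0328), and by 0.42 ± 0.06 without control replicate 3 (adjusted p = 1.78e-04). Its 2 other probe sets were low in that array. On 203626_s_at the values were 6.69, 6.70 and 6.37 in gankyrin shRNA cells, against 6.05, 6.22 and 3.89 in control cells. In the limma fit of every named probe set 0 of the 3 SKP2 probe sets passed on 6 arrays (adjusted p 0.0796 to 0.207). Without control replicate 3 all 3 passed, at 0.42 ± 0.07, 0.37 ± 0.08 and 0.45 ± 0.11 (limma adjusted p = 3.83e-04, 0.00495 and 0.00597). The gene-level SKP2 call was lost without gankyrin shRNA replicate 1, 2 or 3 (0.0845, 0.0666 and 0.142), without control shRNA replicate 1 or 2 (0.0882 and 0.102), with averaged probe sets (0.0742), with arrays centred on their medians (0.0526) and with no intensity trend (0.0618). All 3 SKP2 probe sets end in _x_at or _s_at, so avoiding such probe sets could not change its values.

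FBXW7 had log2 signals of 6.03, 5.91 and 6.03 in gankyrin shRNA cells, against 6.42, 6.43 and 6.73 in control cells. The groups were well separated, with control replicate 3 highest. FBXW7 fell by 0.54 ± 0.10 on the log2 scale, with FBXL16 one of the 2 changes of largest size on 6 arrays (limma adjusted p = 0.00555), and by 0.44 ± 0.08 without control replicate 3, where FBXO16 changed more (-0.50 ± 0.15). Its 2 other probe sets past the limit, 218751_s_at and 222729_at, were at -0.19 ± 0.11 and -0.17 ± 0.10 and did not pass. The FBXW7 call was kept in 14 of 15 alternatives and lost with averaged probe sets (0.0506), where the log2 fold change was -0.30.

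FBXW11 measured 9.31, 9.39 and 9.29 in gankyrin shRNA cells and 9.48, 9.60 and 9.64 in control cells. All knockdown arrays were lower, and FBXW11 fell by 0.24 ± 0.06 (limma adjusted p = 0.0198). On its other probe set, 209456_s_at, the values were 7.36, 7.43 and 7.21 in gankyrin shRNA cells, against 7.33, 7.43 and 5.19 in control cells. That probe set was at 0.68 ± 0.54 on 6 arrays and -0.05 ± 0.08 without control replicate 3, and passed in neither limma fit. The FBXW11 call was lost without gankyrin shRNA replicate 1 or 3 (0.0815 and 0.0908), without control shRNA replicate 2 (0.0630), with averaged probe sets (0.591) and with no intensity trend (0.0534). With averaged probe sets the sign turned, to 0.22.

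FBXW2, known for acting on the placental factor GCM1, was at 7.74, 7.80 and 7.71 in gankyrin shRNA cells and at 7.87, 8.03 and 8.12 in control cells. The groups lay close together without overlap, and FBXW2 fell by 0.26 ± 0.08 (limma adjusted p = 0.0463). Its other probe sets, 218941_at and 235195_at, were at 0.15 ± 0.09 and -0.30 ± 0.09 and did not pass in the limma fit of every named probe set (adjusted p = 0.310 and 0.0728), nor did the main one there (0.0888). Without control replicate 3 the dim 235195_at passed as lower, at -0.34 ± 0.12 (adjusted p = 0.0489), as did the main one, at -0.20 ± 0.07 (0.0487). The FBXW2 call was kept in 5 of 15 alternatives and lost without gankyrin shRNA replicate 1, 2 or 3 (0.138, 0.0989 and 0.157), without control shRNA replicate 2 (0.116), with no signal limit (0.0578), with averaged probe sets (0.205), with _x_at and _s_at probe sets avoided (0.264), with arrays centred on their medians (0.0640), with no intensity trend (0.0645) and with the replicate block (0.0612). Of the 10 FBXW genes 3 fell and 0 rose in limma (30% and 0%, against 14.3% and 8.13% of all genes), with 0 rises at an unadjusted p under 0.05. The count of falls was 1, 2 and 1 without gankyrin shRNA replicate 1, 2 and 3 and 3, 1 and 3 without control shRNA replicate 1, 2 and 3, 0 with averaged probe sets and 1 with no intensity trend. The 7 that did not pass ran from -0.16 for FBXW12 to 0.18 for FBXW10B, and the class median was -0.02.

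**Figure D2:**
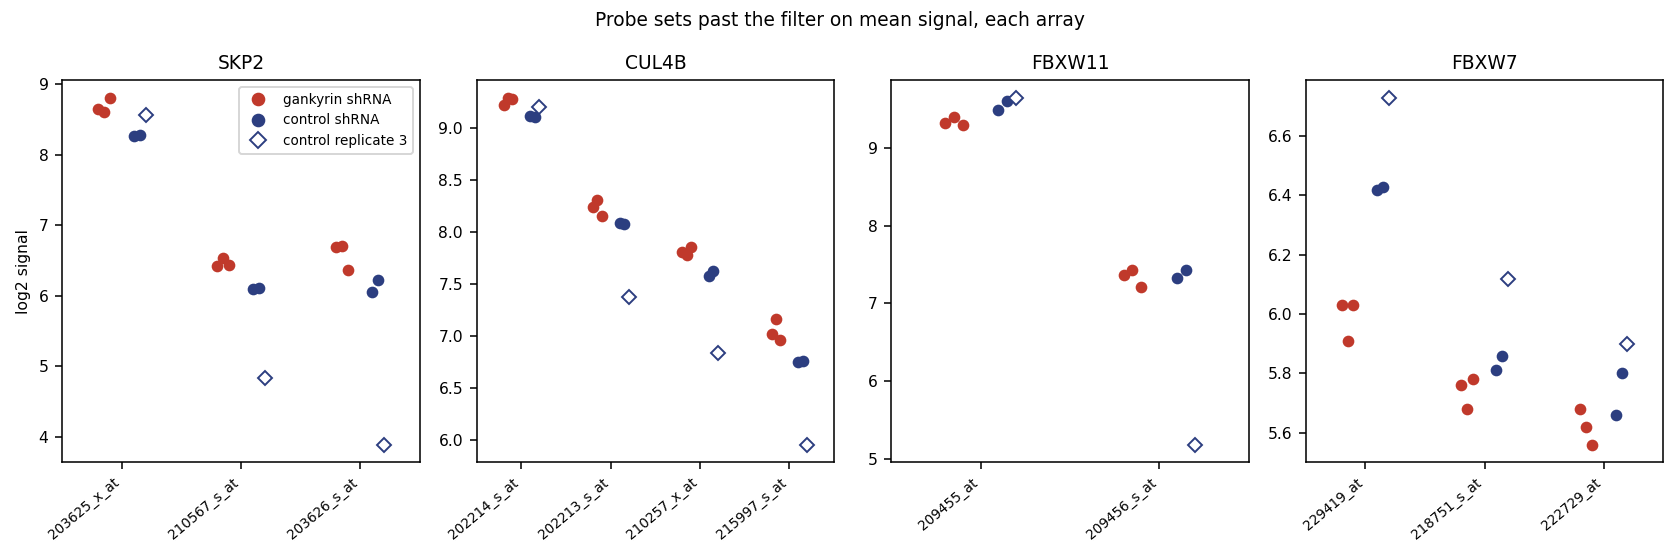
Log2 signal (y axis) of each probe set past the signal limit for SKP2, CUL4B, FBXW11 and FBXW7, with 1 point per array, gankyrin shRNA to the left of control shRNA. The open diamond is control replicate 3, which reads 3.89 on one SKP2 probe set and 5.19 on one FBXW11 probe set, far below the other controls.

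Over the 133 probe sets of members past the limit, control replicate 3 was at least 0.5 below both other controls on 10 and at least 0.5 above both on 4. These are 7.52% and 3.01% of the members' probe sets, and 7.29% and 2.61% of 27004 single-gene probe sets were so placed. On the probe set read for each gene, control replicate 3 was the highest control for 36 of the 61 members (59%, and 56% over all genes).

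In the FBXL class 1 of 14 genes rose, which was SKP2, and 2 fell (7.14% and 14.3%, against 8.13% and 14.3% of all genes). FBXL16, a leucine-rich repeat F-box protein, had log2 signals of 7.63, 7.72 and 7.74 in gankyrin shRNA cells, against 8.11, 8.12 and 8.46 in control cells. A wide gap separated the groups. FBXL16 fell by 0.53 ± 0.10 (limma adjusted p = 0.00434), by 0.42 ± 0.06 without control replicate 3, and kept its call in 15 of 15 alternatives. Only 1 of its 2 probe sets met the signal limit, so averaging probe sets or avoiding _x_at and _s_at ones could not change its values. FBXL15, which acts on the ligase SMURF1, was at 6.55, 6.61 and 6.50 in gankyrin shRNA cells and at 6.81, 6.89 and 6.84 in control cells. FBXL15 fell by 0.29 ± 0.08 (limma adjusted p = 0.0252), a call lost without gankyrin shRNA replicate 1, 2 or 3 (0.0898, 0.0628 and 0.107) and without control shRNA replicate 2 (0.0812). The 11 that did not pass ran from -0.33 for FBXL20 to 0.16 for FBXL6. The class median was -0.19, and 11 of the 14 values were negative (78.6%, and 53.7% over all genes). Among these is FBXL8, which met the signal limit only through the control cells.

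Of the 27 FBXO genes 3 fell and 0 rose in limma, where 8.13% of all genes rose. At an unadjusted p under 0.05 there were 2 rises and 6 falls, beside 1861 and 3146 among all 14199 genes. Falls made up 11.1% of the class, against 14.3% of all genes, and numbered 1, 2 and 1 without gankyrin shRNA replicate 1, 2 and 3 and 3, 2 and 5 without control shRNA replicate 1, 2 and 3. FBXO25, a nuclear relative of the muscle atrophy factor FBXO32, had the smallest adjusted p of the members. It read 8.21, 8.36 and 8.34 in gankyrin shRNA cells and 8.67, 8.71 and 8.81 in control cells. FBXO25 fell by 0.43 ± 0.07 (limma adjusted p = 0.00255) and kept its call in 15 of 15 alternatives. It has 1 probe set, so averaging probe sets or avoiding _x_at and _s_at ones could not change its values. FBXO10, known for acting on the survival factor BCL2, was at 5.26, 5.41 and 5.37 in gankyrin shRNA cells, against 5.58, 5.71 and 5.89 in control cells. FBXO10 fell by 0.38 ± 0.10 (limma adjusted p = 0.0277), a call lost without gankyrin shRNA replicate 1, 2 or 3 (0.112, 0.0666 and 0.0810) and without control shRNA replicate 2 (0.0630).

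FBXO16 was dim, at 4.20, 4.43 and 3.82 in gankyrin shRNA cells and 4.54, 4.77 and 4.64 in control cells. The medians of whole arrays were 4.20 to 4.25, so its knockdown values lie near or below the middle of all probe sets, and no detection call was used here. FBXO16 fell by 0.50 ± 0.15 (limma adjusted p = 0.0369), a call lost without gankyrin shRNA replicate 1 or 3 (0.0906 and 0.121), without control shRNA replicate 2 (0.106), with averaged probe sets (0.0525) and with no intensity trend (0.0518). The 24 FBXO genes that did not pass ran from -0.34 for FBXO31 to 0.27 for FBXO4, and both of these proteins have been reported to act on cyclin D1. FBXO5 (EMI1), which inhibits the anaphase-promoting complex, was at -0.01 with an interval of -0.18 to 0.16.

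**Figure D3:**
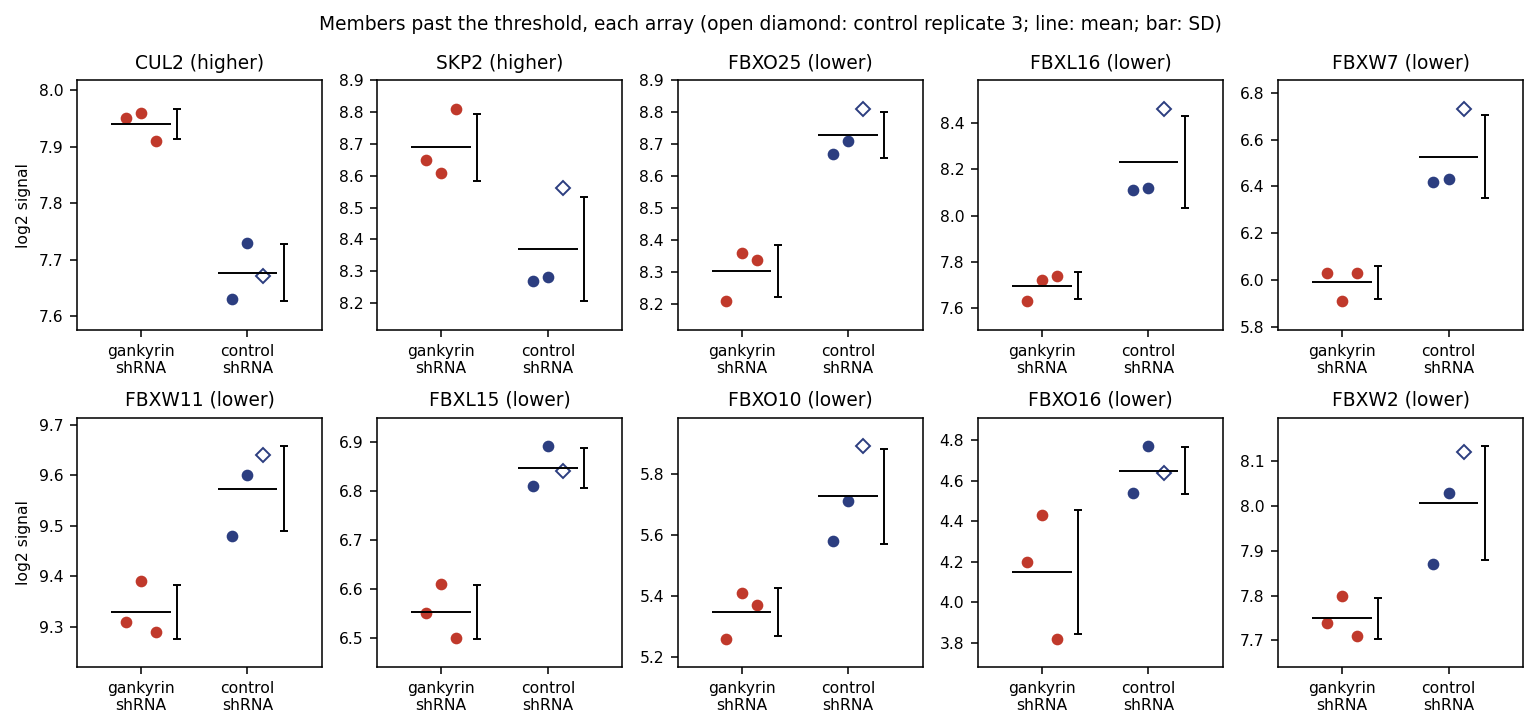
Log2 signal (y axis) on each array for the 10 members past an adjusted p of 0.05, gankyrin shRNA at left and control shRNA at right in each panel, with the mean as a line and the SD as a bar (n = 3 each). In all 10 panels the groups are separate, and control replicate 3 (open diamond) is the highest control in 7.

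The signal limit left out 10 of the 71 genes. Just inside it were FBXL8 (mean of 6 arrays 3.62) and FBXO27 (4.06), and just outside it FBXO2 (3.57) and FBXO17 (3.46). FBXO2, FBXO17 and FBXO27 belong to the sugar-binding F-box proteins, which recognise N-glycans on glycoproteins. Of the 5 genes of that kind 2 were measured, and FBXO27 and FBXO44 were at 0.13 ± 0.12 and -0.19 ± 0.11 and did not pass (limma adjusted p = 0.452 and 0.242).

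The 10 members that passed had 8 other probe sets past the limit. Of those 8, 5 had the sign of the main probe set and 0 passed with it, in the limma fit of every named probe set on 6 arrays, where the adjusted p-values of the 8 ran from 0.0728 to 0.841. In that fit, over more features, 5 of the 10 main probe sets also missed the threshold: those of FBXL15 (0.0503), FBXO10 (0.0647), SKP2 (0.0796), FBXO16 (0.0887) and FBXW2 (0.0888).

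F-box genes that carry other names were read beside the members. Of 7 measured, 3 fell and 0 rose (42.9% lower, against 14.3% of all genes) in limma, with a median of -0.22 and 0 rises at an unadjusted p under 0.05. The falls numbered 1 without any one gankyrin shRNA array and 4, 1 and 3 without control shRNA replicate 1, 2 and 3, and 1 with averaged probe sets. BTRC, the paralogue of FBXW11, read 6.08, 6.21 and 6.13 in gankyrin shRNA cells, against 6.46, 6.65 and 6.69 in control cells. BTRC fell by 0.46 ± 0.09 (limma adjusted p = 0.00667), a call lost with averaged probe sets (0.983) and with _x_at and _s_at probe sets avoided (0.382), where the value was 0.00 on averaging and 0.12 on avoiding. KDM2B, a histone demethylase with an F-box, fell by 0.36 ± 0.10 (adjusted p = 0.0265), a call lost without gankyrin shRNA replicate 1, 2 or 3 (0.0713, 0.108 and 0.0843) and without control shRNA replicate 2 (0.0598). FBH1, an F-box helicase, fell by 0.22 ± 0.07 (adjusted p = 0.0412), a call lost without gankyrin shRNA replicate 1, 2 or 3 (0.142, 0.114 and 0.120), without control shRNA replicate 2 (0.109), with no signal limit (0.0549), with averaged probe sets (0.655), with arrays centred on their medians (0.0648) and with the replicate block (0.0688). KDM2A, the paralogue of KDM2B, was at -0.22 ± 0.09 and did not pass.

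Cullins are switched on by attachment of NEDD8, and CAND1 exchanges their receptors. Of 16 measured genes of neddylation and cullin exchange 1 rose and 1 fell, 12.5% called against 22.5% of all genes. The rises numbered 0, 0 and 1 without gankyrin shRNA replicate 1, 2 and 3 and 1, 1 and 3 without control shRNA replicate 1, 2 and 3. The falls numbered 0, 1 and 0 without gankyrin shRNA replicate 1, 2 and 3 and 1 without any one control shRNA array. Rises numbered 3 with quantile normalization and 2 with no intensity trend or with a limit at the lowest 60% of probe sets. ARIH2, a ligase that works with neddylated CUL5, had 7.75, 7.87 and 7.72 in gankyrin shRNA cells, against 7.28, 7.34 and 7.56 in control cells. ARIH2 rose by 0.39 ± 0.09 (limma adjusted p = 0.0139), a call lost without gankyrin shRNA replicate 1 or 2 (0.0506 and 0.0731) and with averaged probe sets (0.794), and was at -0.03 on averaging. DCUN1D2, which promotes NEDD8 transfer, fell by 0.33 ± 0.08 (adjusted p = 0.0168), a call lost without gankyrin shRNA replicate 1 or 3 (0.0764 and 0.0695). GLMN, an inhibitor of RBX1, and UBA3, the catalytic subunit of the NEDD8 E1, were at 0.24 ± 0.08 and 0.17 ± 0.06 and did not pass (0.0528 and 0.0828).

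Of 25 adaptors and receptors of the other cullins 2 rose and 7 fell, 8% and 28%, against 8.13% and 14.3% of all genes, with a median of -0.07. The rises numbered 0 without any one gankyrin shRNA array and 1, 2 and 5 without control shRNA replicate 1, 2 and 3, and the falls 2 without any one gankyrin shRNA array and 5, 3 and 7 without control shRNA replicate 1, 2 and 3. Falls numbered 3 with averaged probe sets and 4 with the replicate block, with quantile normalization or with no signal limit. Rises numbered 1 with averaged probe sets, with arrays centred on their medians or with no intensity trend. They numbered 3 with the replicate block, with quantile normalization or with a limit at the lowest 60% of probe sets. SOCS2, a CUL5 receptor for the growth hormone receptor, was at 3.05, 3.47 and 3.02 in gankyrin shRNA cells and at 4.17, 4.47 and 4.59 in control cells. It is counted among the falls, but all 3 knockdown values lie below the signal limit of 3.6, which SOCS2 met only through the control cells, so no fold is given. WSB2, a SOCS-box protein, fell by 0.35 ± 0.06 (adjusted p = 0.00336). DTL, the CUL4 receptor for CDT1, rose by 0.28 ± 0.07 (adjusted p = 0.0185), a call lost without gankyrin shRNA replicate 1, 2 or 3 (0.0640, 0.0832 and 0.0684) and without control shRNA replicate 2 (0.0543). FEM1B, a CUL2 receptor, fell by 0.30 ± 0.08 (adjusted p = 0.0247), a call lost without gankyrin shRNA replicate 1, 2 or 3 (0.0611, 0.0787 and 0.110), without control shRNA replicate 2 (0.0605) and with averaged probe sets (0.850), and was at 0.04 on averaging.

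The anaphase-promoting complex is a related ligase with a cullin-like subunit. Of its 17 measured genes 2 rose and 3 fell, 11.8% and 17.6%, against 8.13% and 14.3% of all genes. The rises numbered 1 without any one gankyrin shRNA array and 1, 1 and 3 without control shRNA replicate 1, 2 and 3, and the falls 2, 1 and 1 without gankyrin shRNA replicate 1, 2 and 3 and 2, 2 and 4 without control shRNA replicate 1, 2 and 3. Rises also numbered 1 with no signal limit, with averaged probe sets, with arrays centred on their medians and with no intensity trend. The subunit ANAPC15 rose by 0.46 ± 0.08 and UBE2C, the E2 enzyme of the complex, fell by 0.45 ± 0.08 (limma adjusted p = 0.00367 and 0.00409). Its activator CDC20 fell by 0.28 ± 0.07 (adjusted p = 0.0158), a call lost without gankyrin shRNA replicate 2 or 3 (0.0635 and 0.0734). The RING subunit ANAPC11 rose by 0.22 ± 0.07 (adjusted p = 0.0462), a call lost without gankyrin shRNA replicate 1, 2 or 3 (0.0924, 0.140 and 0.162), without control shRNA replicate 1 or 2 (0.104 and 0.146), with no signal limit (0.0572), with averaged probe sets (0.0599), with arrays centred on their medians (0.104) and with no intensity trend (0.0894).

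Transcripts of 24 proteins known or reported as SCF substrates were also read. Of these 7 fell and 0 rose in limma (29.2% lower, against 14.3% of all genes), with a median of -0.07 and 0 rises at an unadjusted p under 0.05. The falls numbered 4, 4 and 6 without gankyrin shRNA replicate 1, 2 and 3 and 8, 7 and 8 without control shRNA replicate 1, 2 and 3, and 4 with averaged probe sets, where 1 rose. CCND1 (cyclin D1) was at 6.82, 6.88 and 6.75 in gankyrin shRNA cells, against 7.74, 7.89 and 8.09 in control cells. CCND1 fell by 1.09 ± 0.10, the circadian repressor CRY1 by 0.54 ± 0.08 and the insulin receptor substrate IRS1 by 0.60 ± 0.10 (limma adjusted p = 7.91e-05, 0.00135 and 0.00224), and each kept its call in 15 of 15 alternatives. The receptor NOTCH1 fell by 0.45 ± 0.10 (adjusted p = 0.00998), a call lost without gankyrin shRNA replicate 1 or 2 (0.0552 and 0.0546) and with averaged probe sets (0.0715). Protein turnover was not analysed here.

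**Figure D4:**
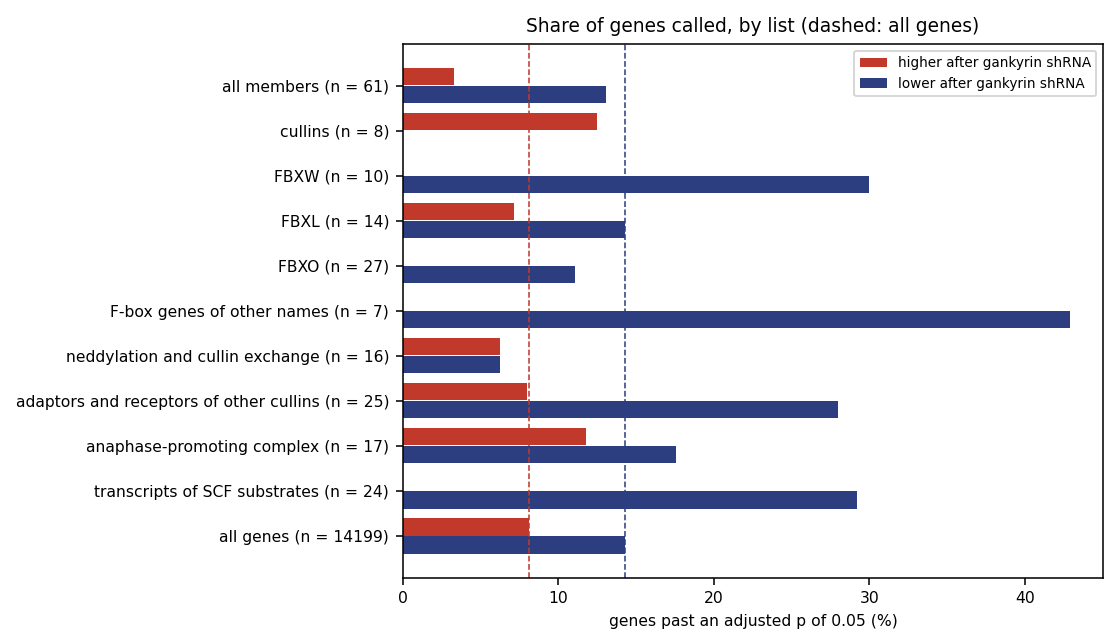
Percent of measured genes past an adjusted p of 0.05 (x axis), higher (red) and lower (blue) after gankyrin shRNA, for the members, their classes, the related lists and all genes, whose shares are the dashed lines at 8.13% and 14.3%. The members as a whole sit at 3.28% and 13.1%, and a share in a list of few genes moves by several percent with each gene.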

How the data were processed

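The authors deposited log2 signals for 54675 probe sets on 6 arrays; that they are on a log2 scale follows from their range, 1.29 to 13.68. MAS5 is the only tool listed per the submitters' processing notes, and what it was used for is not given in the sources used here.

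Probe sets were named from the platform annotation, with symbols updated by Entrez identifier to RefSeq. Of them 41091 had 1 gene and 1801 several, and 62 controls were left out. Each gene took its brightest single-gene probe set with a mean over 6 arrays above 3.6. Groups came from the sample titles. The test was limma 3.58.1 (R 4.3.3; lmFit, eBayes with an intensity trend, two-sided), adjusted by Benjamini-Hochberg over 14199 genes at 0.05, and was tested on simulated data. "Rose" and "fell" are used only past it, and rises or falls counted at an unadjusted p are marked as such. Precision is limited by 3 arrays per group. The 15 alternatives varied the signal limit, probe set choice, scaling, variance prior, replicate block and arrays left out.

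The members and lists were chosen with earlier results of these data known. Named genes were PSMD10, the cullins, SKP1, SKP2, RBX1, every called member with its other probe sets, the members beside the signal limit and up to 4 genes of smallest p per other list; exceptions are marked or are the ends of a range, markers or genes of known role. The fit of single probe sets without control replicate 3 was chosen after seeing the data.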

Additional observations from a re-analysis of the deposited data

How the results depend on the processing

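Against 2 rises and 8 falls among the 61 members, averaging a gene's probe sets gave 0 rises and 7 falls. Avoiding _x_at and _s_at probe sets gave 1 and 9, centring arrays on their medians 0 and 7, and no intensity trend 1 and 5. A gene with only such probe sets was still read from one of them on avoiding. SKP2, the 1 rise there, was such a gene. Of the 10 calls of the main fit averaging kept 4, avoiding 8, centring 7 and no intensity trend 6. On averaging FBXL4, FBXO31 and FBXO33 passed as lower, and on avoiding FBXO11 and FBXO28 did. Leaving out 1 array gave 0 to 4 rises and 3 to 10 falls among the members, and 613 to 1808 rises and 1071 to 2353 falls among all genes. No signal limit, a limit at the lowest 60% of probe sets, quantile normalization and a robust prior kept the members' counts within 1.5 times. No shared effect of replicate number was seen. Deviations of same-numbered arrays from their group means correlated at 0.02, 0.108 and -0.006, and not every array correlated best with its own number. Such values cannot tell whether the arrays were prepared in pairs. With the replicate block 2 members rose and 8 fell, and 1097 and 1952 of all genes. The 8 falls there include FBXL20 (-0.33, limma adjusted p = 0.0370), while FBXW2 did not pass (0.0612). Signs turned for small or probe-set-dependent values. Averaging gave CUL1 0.00, CUL9 0.04, FBXW11 0.22, ARIH2 -0.03 and FEM1B 0.04. Avoiding _x_at and _s_at probe sets gave CUL1 -0.07, CUL2 -0.04, CUL4A 0.21, FBXW2 0.15 and BTRC 0.12. Median centring gave SKP1 -0.01. Leaving out 1 array gave CUL1 -0.05 to 0.14, SKP1 -0.02 to 0.03 and RBX1 0.00 at its lowest. The cause was not tested. Of the members the dimmest over 6 arrays were FBXL8, FBXO27, FBXO40, FBXL9P, FBXO24 and FBXO16, with means of 3.62 to 4.40, and low signal limits these.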
